A study of Mus musculus with 9 samples.

Results

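The axon guidance ligands and receptors are 4 ligand families, the semaphorins, ephrins, Slits and netrins, and the receptors that read them, the neuropilins, plexins, Eph receptors, Robo proteins and the Unc5 proteins with Dcc. Members were found by symbol, as the probe sets that the platform annotation gives to a single symbol of these families, a rule that uses no measured value, although the families were picked with earlier results of these data known. This gave 68 genes on 151 probe sets, out of 18193 genes named on an array of 45037 probe sets. They comprised 20 semaphorins, 8 ephrins, 3 Slits and 4 netrins as ligands, and 2 neuropilins, 9 plexins, 13 Eph receptors, 4 Robo genes and 5 genes of Unc5 with Dcc as receptors. After a filter on low signal, 60 of the 68 genes were tested on 105 probe sets, each gene through its brightest probe set.

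Guidance ligands are secreted or membrane-bound proteins that attract or repel the growing tip of an axon, and each family is read by its own receptors. Class 3 semaphorins are secreted and bind a neuropilin that shares a complex with a class A plexin. Other semaphorins are anchored in the membrane and mostly bind plexins directly. Ephrins are held on the cell surface and bind Eph receptor tyrosine kinases on a neighbouring cell. Slits bind Robo receptors, and netrins bind Dcc and the Unc5 proteins. In developing spinal motor neurons these systems steer axons out of the cord and into the limb, and many of the genes remain expressed in the adult nervous system.

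Expression was measured on 9 single-channel Affymetrix Mouse 430 2.0 arrays in 3 groups of 3. The SOD1-mutant motor neurons were lifted by laser capture from the cord of mice that carry a mutant SOD1, the gene of a superoxide dismutase that causes an inherited form of amyotrophic lateral sclerosis. The wild-type motor neurons were captured in the same way from wild-type mice. The wild-type whole cord arrays carry RNA of cord tissue, called total cord in the descriptions, which the name used here follows. The source field says ventral cord on all 9 arrays, so the labels do not settle which part of the cord was taken. The allele, the promoter of any transgene, age, disease stage, the way neurons were recognised and whether arrays share an animal are not stated by the labels, and the code D28 in all titles is unexplained. The p-values below thus reflect differences among arrays that may be partly technical, and their precision is limited by having 3 arrays a group.

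The arrays had been scaled to 1 trimmed mean before deposit, yet array medians were 274 to 366 on SOD1-mutant motor neuron arrays and 269 to 313 on wild-type motor neuron arrays, against 556 to 582 on cord arrays. For the Gapdh control transcript, 3′ over 5′ signal as a log2 ratio was 4.33 to 4.63, 3.65 to 4.52 and -0.29 to -0.26 in these groups, so captured arrays carried little 5′ signal. Of 9 motor neuron marker genes, 8 passed the test as higher in wild-type motor neurons than in cord. Their summed signal was 179499 to 183704 on SOD1-mutant arrays, 198215 to 213555 on wild-type motor neuron arrays and 15224 to 22497 on cord arrays. Markers of other cells were lower in wild-type motor neurons than in cord, namely 5 of 6 astrocyte, 5 of 5 oligodendrocyte, 4 of 4 oligodendrocyte precursor, 6 of 6 microglial, 6 of 6 endothelial and mural and 5 of 5 interneuron markers tested. The microglial markers summed to 2223 to 2270 on SOD1-mutant, 1430 to 1903 on wild-type motor neuron and 23602 to 24488 on cord arrays, and Aif1 lay below background on all captured arrays. The oligodendrocyte markers summed to 222124 to 266233, 196656 to 213077 and 380688 to 446016 in these groups, so that glial signal was not absent from the captured cells. The endothelial and mural markers summed to 9387 to 9762, 6335 to 10322 and 38622 to 44126, with Pecam1 below background on all captured arrays. The part of these other cells and of the lost 5′ signal in the results below was not tested.

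The 3 guidance genes with the largest rises in wild-type motor neurons over cord were Nrp2, Sema3a and Slit2, and their promoters are shown since these genes lead the results below and the windows differ in base composition. Each line gives 250 bases before to 50 after the RefSeq start site on the + strand of GRCm38.p6, 5′ to 3′, at chr1:62703067-62703366 for Nrp2, chr5:13396534-13396833 for Sema3a and chr5:47982905-47983204 for Slit2. Capitals mark the GC box, GGGCGG or CCGCCC on the other strand.
Nrp2: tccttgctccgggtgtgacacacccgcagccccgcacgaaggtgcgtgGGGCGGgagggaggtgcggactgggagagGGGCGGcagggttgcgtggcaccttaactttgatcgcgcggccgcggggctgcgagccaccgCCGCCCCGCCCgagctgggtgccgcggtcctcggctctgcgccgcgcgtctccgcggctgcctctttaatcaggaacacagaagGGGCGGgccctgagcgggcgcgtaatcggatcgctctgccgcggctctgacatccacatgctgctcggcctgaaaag
Sema3a: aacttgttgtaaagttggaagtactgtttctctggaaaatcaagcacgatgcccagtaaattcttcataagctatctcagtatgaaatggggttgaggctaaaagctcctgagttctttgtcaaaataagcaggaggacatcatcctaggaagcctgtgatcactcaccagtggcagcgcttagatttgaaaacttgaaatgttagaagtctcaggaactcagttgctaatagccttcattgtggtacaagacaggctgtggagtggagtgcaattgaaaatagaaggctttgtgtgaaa
Slit2: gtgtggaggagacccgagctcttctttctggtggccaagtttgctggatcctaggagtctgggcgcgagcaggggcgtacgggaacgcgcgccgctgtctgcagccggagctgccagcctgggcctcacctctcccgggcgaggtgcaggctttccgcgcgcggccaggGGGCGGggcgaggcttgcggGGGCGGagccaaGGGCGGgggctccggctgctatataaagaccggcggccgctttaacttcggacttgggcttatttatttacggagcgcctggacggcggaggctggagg
The Nrp2 window held 5 GC boxes, some of them overlapping, in 70.7% G and C. The Slit2 window held 3 in 68.0% G and C, with 1 match to the TATA box letters TATAAA. The Sema3a window held neither and was 41.3% G and C. RefSeq windows were found for 58 of the 68 genes, 74 windows in all. A GC box was found in 71.6% of these and in 35.7% of all 32841 promoter windows, at a median of 64.2% G and C in guidance windows and 52.7% in all windows. It was held by 11 of 16 windows of genes called higher and by 24 of 33 windows of genes called lower in motor neurons, so the letters did not separate the calls. The letters TAATTA, the core bound by many homeodomain factors, were in 4.05% of guidance windows and 5.29% of all windows. These matches describe letters and are not binding sites.

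The first comparison asked which guidance genes were higher or lower in wild-type motor neurons than in wild-type whole cord. Of the 60 genes tested, 15 rose and 29 fell at an adjusted p of 0.05 (limma, two-sided, Benjamini-Hochberg over all 27022 probe sets tested). Over all 12983 genes tested, 31.1% rose and 36.1% fell, against 25.0% and 48.3% of the guidance genes. The median log2 change of the guidance genes was -0.51 and that of all genes was -0.10. This split depends on the scaling of the arrays and on the filter. Quantile normalization gave 26 higher (43.3%, against 42.2% of all genes) and 21 lower (35.0%, against 26.1%), with medians of 0.01 for guidance genes and 0.26 for all genes. Centring each array on its median gave 29 higher (48.3%, against 57.8% of all genes) and 19 lower (31.7%, against 15.3%), with medians of 0.40 and 0.81. A filter at the 60th percentile left 44 guidance genes, of which 15 were higher (34.1%, against 38.1% of all genes) and 17 lower (38.6%, against 35.6%), with medians of -0.04 and 0.03. The median of the guidance genes lay below that of all genes in each of these settings. Among the 29 that fell, Sema3b, Sema3f, Sema3g, Sema6b and Plxnd1 passed the filter only through the cord, where they are high (5 of 60 guidance genes, 8.33%, against 2.4% of all genes), so their p-values are not given for this comparison. Of these genes, 12 of the 15 that rose and 19 of the 29 that fell kept their call in every setting in which they were tested, and the exceptions are named below. Whole cord holds many cell types, so a fall can mean fewer cells of another type or less RNA per cell, which cannot be told apart here. Changes below are on the scale of log2(signal + 20.3), given with the SE of the fit over 3 arrays a group.

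**Figure D1:**
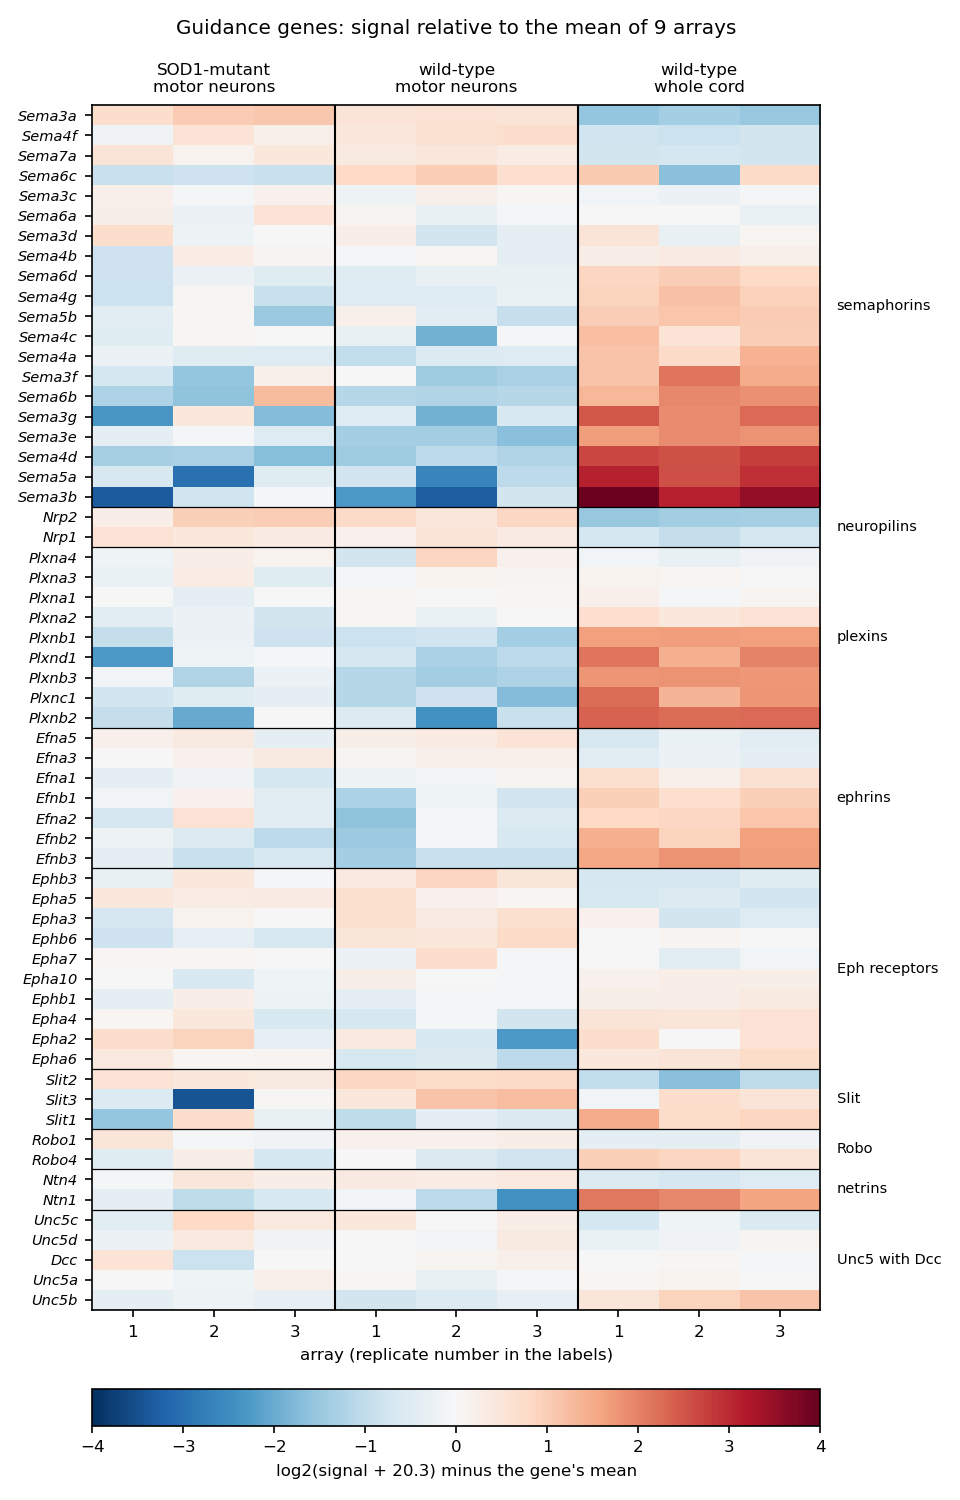
Colour shows log2(signal + 20.3) of each tested guidance gene minus its mean over 9 arrays, with genes in rows by family and arrays in columns, 3 each of SOD1-mutant motor neurons, wild-type motor neurons and wild-type whole cord. The 2 blocks of motor neuron columns look alike for most genes, and the cord columns are mostly red for the 29 genes called lower in wild-type motor neurons and mostly blue for the 15 called higher.

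By role, among 32 ligands tested, 7 rose and 18 fell (21.9% and 56.2%, against 31.1% and 36.1% of all genes), with a median log2 change of -1.43. Among 28 receptors tested, 8 rose and 11 fell (28.6% and 39.3%), with a median of -0.11. Of those that fell, the ligands Sema3b, Sema3f, Sema3g and Sema6b and the receptor Plxnd1 passed the filter only through the cord. Under quantile normalization, where 42.2% of all genes were higher and 26.1% lower, receptors gave 16 higher and 7 lower (57.1% and 25.0%) and ligands 10 and 14 (31.2% and 43.8%). After centring, where these shares of all genes were 57.8% and 15.3%, receptors gave 17 higher and 5 lower (60.7% and 17.9%) and ligands 12 and 14 (37.5% and 43.8%). The filter at the 60th percentile left 22 ligands, with 7 higher and 11 lower (31.8% and 50.0%) and a median of -0.82. It left 22 receptors, with 8 higher and 6 lower (36.4% and 27.3%) and a median of 0.15. Of all genes 38.1% were then higher and 35.6% lower. The difference between ligands and receptors was not tested.

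**Figure D2:**
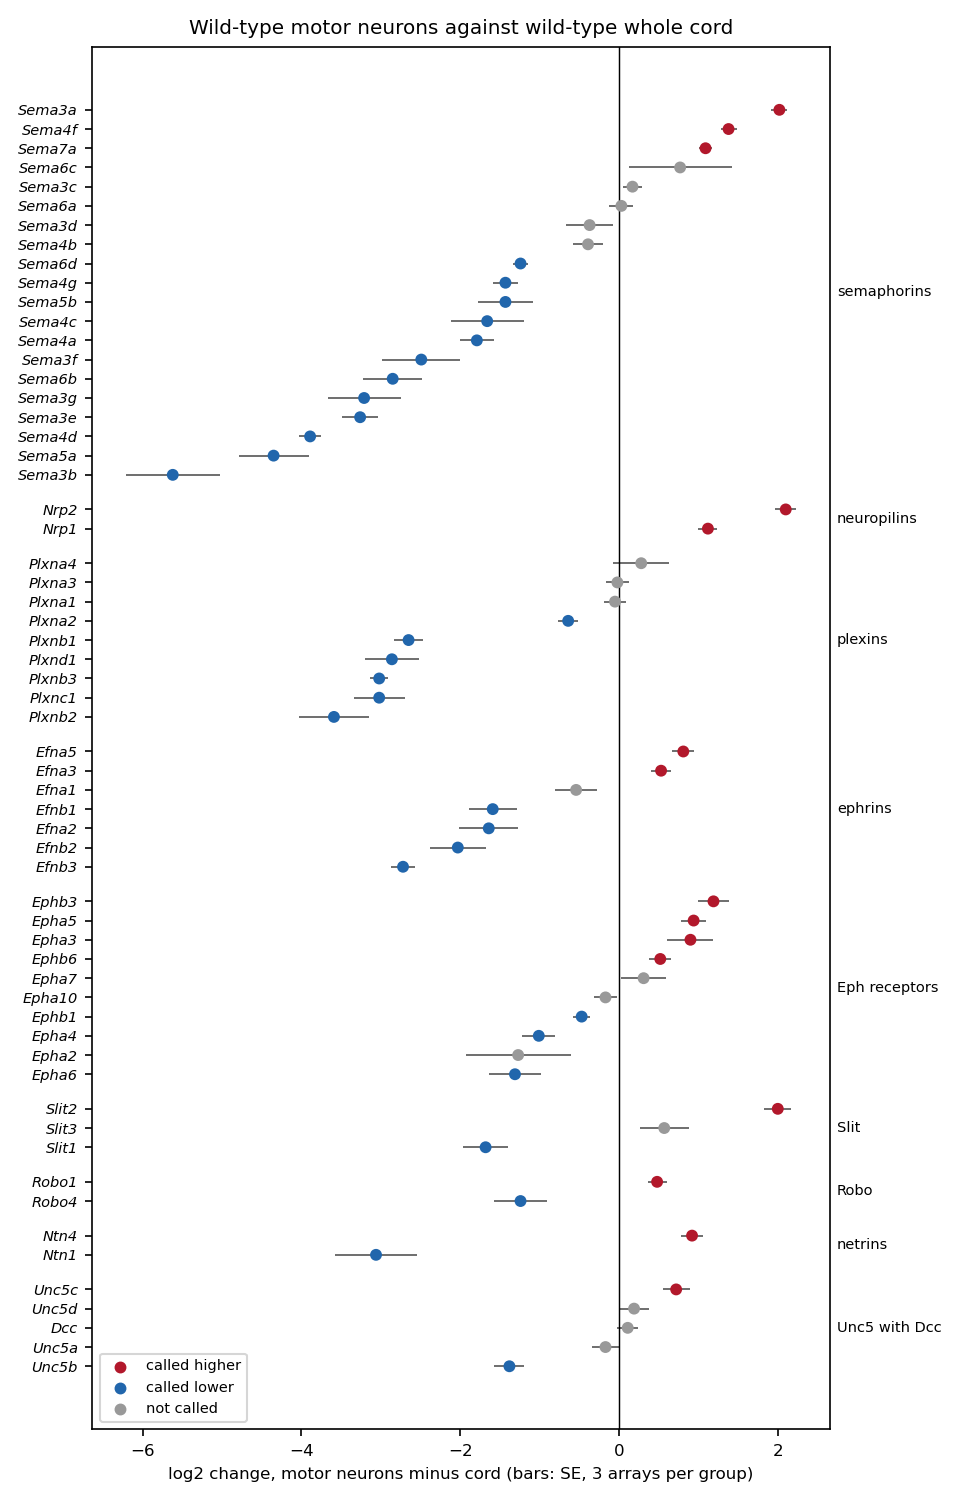
Points show the log2 change of each tested guidance gene, wild-type motor neurons minus wild-type cord, with bars for the SE over 3 arrays a group, in rows by family. The 15 genes called higher (red) reach 2.10 for Nrp2, the 29 called lower (blue) reach -5.62 for Sema3b, and 16 (grey) were not called.

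Among the secreted class 3 semaphorins, Sema3a rose and 4 of the other members fell. Of those that fell, Sema3b, Sema3f and Sema3g passed the filter only through the cord, so the count of falls is not a result about the class. With the filter at the 60th percentile 3 members were tested, with 1 higher and 0 lower, where 38.1% and 35.6% of all genes were. Sema3a encodes a repellent that binds Nrp1. Its signal was 13337, 16640.3 and 17343 on SOD1-mutant motor neuron arrays and 11567, 12281 and 11679.5 on wild-type motor neuron arrays, against 2769.7, 3153 and 2828 on cord arrays. All captured arrays exceeded all cord arrays. The gene was 4.04-fold higher in wild-type motor neurons than in cord (log2 change 2.02 ± 0.10, adjusted p = 6.42e-07). A dimmer second probe set of Sema3a was not called (log2 change -0.69 ± 0.30, adjusted p = 0.0713), so the rise rests on 1 of 2 tested probe sets. Sema3b, a secreted ligand of neuropilins, moved the other way and had the largest fall of all guidance genes. Its signal was 11.4, 162 and 279 on SOD1-mutant arrays, 44.6, 12 and 172 on wild-type motor neuron arrays and 4769, 2721 and 3630.0 on cord arrays. Cord arrays were far above all captured arrays, of which 1 in each group exceeded the background. With values raised to background the log2 change was -4.40, a 21.1-fold fall, against -5.62 ± 0.59 as measured, -5.02 without the second and -6.31 without the third wild-type motor neuron array. The second tested probe set was also lower, with a log2 change of -3.46 ± 0.62, and exceeded background on 1 of 3 wild-type motor neuron arrays.

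Sema3e, which signals through Plxnd1 without a neuropilin, fell 9.56-fold (log2 change -3.26 ± 0.23, adjusted p = 4.06e-06). Its signal was 219, 215 and 170.1 on wild-type motor neuron arrays and 1930.2, 2235 and 2114 on cord arrays, with no overlap. Sema3f and Sema3g, both ligands of Nrp2, fell with log2 changes of -2.49 ± 0.49 and -3.21 ± 0.46. No wild-type motor neuron array had Sema3g above background and all cord arrays did, which makes it at least 5.98-fold lower. Sema3f was above background on 1 of 3 wild-type motor neuron arrays. Sema3c was not called, with signals of 5744, 7659.6 and 6805 in wild-type motor neurons and 6062, 5586 and 6263 in cord that overlapped, although its dimmer second probe set was called lower (log2 change -1.15 ± 0.34, adjusted p = 0.0146) and the bright one was called higher after centring (1.07). Sema3d was not called either (log2 change -0.37 ± 0.30).

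Of the 13 membrane-anchored semaphorins, Sema4f and Sema7a rose and 8 fell, where 31.1% of all genes rose and 36.1% fell. Of those that fell, Sema6b passed the filter only through the cord, and Sema4c and Sema5b lost the call under both other scalings. Sema7a, which is held by a lipid anchor and binds Plxnc1 and integrins, had signals of 22471, 17603 and 21048 on SOD1-mutant arrays, 20116, 21617 and 19563 on wild-type motor neuron arrays and 9396, 9689.7 and 9569 on cord arrays. The captured arrays of both genotypes lay in the same range, well above the cord. The rise was 2.13-fold (log2 change 1.09 ± 0.08, adjusted p = 4.65e-06). Sema4f, a transmembrane semaphorin, had signals of 7384, 11859.7 and 9389, 11018, 12404 and 13148 and 4696, 4426 and 4879 in the same groups. It was 2.6-fold higher in wild-type motor neurons than in cord (log2 change 1.38 ± 0.10, adjusted p = 5.3e-06), and its second probe set was also called higher (log2 change 0.73 ± 0.15, adjusted p = 0.0021).

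Sema4d and Sema5a had the largest falls among these. Sema4d is a transmembrane ligand of Plxnb1 that is known to be made by oligodendrocytes. Its signal was 877, 881 and 664 on SOD1-mutant arrays and 811, 1073 and 953 on wild-type motor neuron arrays, against 14402, 13062 and 15262 on cord arrays. No captured array came near the cord level, and the fall was 14.8-fold (log2 change -3.89 ± 0.14, adjusted p = 2.13e-07). Its second probe set also fell but far less (log2 change -1.04 ± 0.15, adjusted p = 0.000313). Sema5a, a transmembrane semaphorin with thrombospondin repeats, had signals of 462, 75.9 and 527 on SOD1-mutant arrays, 425, 101 and 344 on wild-type motor neuron arrays and 6377, 4524 and 5768 on cord arrays. The second array of each captured group was the lowest and lay below background, and the fall was 20.5-fold (log2 change -4.35 ± 0.44, adjusted p = 3.62e-05).

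Sema4a, Sema4c and Sema4g of class 4, Sema5b of class 5, and Sema6b and Sema6d of class 6 also fell, with log2 changes of -1.79 ± 0.21, -1.66 ± 0.46, -1.43 ± 0.16, -1.43 ± 0.35, -2.85 ± 0.37 and -1.24 ± 0.09. Sema4c and Sema5b lost the call under quantile normalization and under centring. Sema6b, which passed the filter only through the cord, was below background throughout the wild-type motor neurons and at least 4.73-fold lower than in cord. Sema6d, a ligand of Plxna1, read on its brightest probe set 10626, 16149 and 13406 on SOD1-mutant and 13420.5, 15182 and 15221 on wild-type motor neuron arrays, below 34491, 36912 and 32351 on cord arrays. Its second tested probe set read 132, 64.1 and 49.4 on wild-type motor neuron arrays, all below background, and 2892, 2790.1 and 2732 on cord arrays, at least 17.7-fold lower, so the 2 probe sets differ widely in the size of the fall. Sema4b, Sema6a and Sema6c were not called under the deposited scaling, though Sema6a and Sema6c were called higher in motor neurons under both other scalings and Sema4b after centring. The 2 dimmer probe sets of Sema6a were called lower (log2 changes -1.11 ± 0.25 and -2.46 ± 0.34). The dimmest was above background on 2 of 3 wild-type motor neuron arrays, 0 of 3 SOD1-mutant arrays and 3 of 3 cord arrays, so that call leans on the cord signal.

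Both neuropilins, the class 3 semaphorin receptors, rose in all 3 scalings. Nrp2, the receptor of Sema3f, had signals of 7853, 12805 and 12948 on SOD1-mutant arrays, 11104, 8963 and 11762 on wild-type motor neuron arrays and 2275, 2486 and 2573 on cord arrays. All captured arrays were above all cord arrays, and the lowest captured value was that of the first SOD1-mutant array. The rise in wild-type motor neurons was 4.29-fold (log2 change 2.10 ± 0.13, adjusted p = 1.89e-06). Nrp1, the receptor of Sema3a, had signals of 15299, 13571 and 12623, 11466, 14409.7 and 12764 and 6260.5, 5176 and 6328 in the same groups. It was 2.17-fold higher (log2 change 1.12 ± 0.12, adjusted p = 5.44e-05), again with no captured array inside the cord range. Of 4 tested Nrp1 probe sets 3 rose, and of 3 tested Nrp2 probe sets 2 rose.

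The plexins divided by class. All 5 plexins of classes B, C and D fell in all 3 scalings, with a median log2 change of -3.02. Of all genes, 36.1% fell under the deposited scaling, 26.1% under quantile normalization and 15.3% after centring. Plxnd1 passed the filter only through the cord, and the filter at the 60th percentile left 2 of these 5 plexins, of which 2 fell. No class A plexin rose and 1 of 4 fell under the deposited scaling. Plxnb2, a receptor of class 4 semaphorins, had signals of 268, 120.3 and 536 on SOD1-mutant arrays, 363, 84.2 and 281 on wild-type motor neuron arrays and 2898, 2617 and 2695 on cord arrays. It was 12-fold lower in wild-type motor neurons than in cord (log2 change -3.59 ± 0.44, adjusted p = 0.000119), and 2 of 3 arrays in each captured group exceeded background. Plxnb3 had signals of 3494, 1615 and 3145, 1700.1, 1414 and 1562 and 12707, 13099 and 12524 in these groups. This plexin was well above background on every array, so its 8.13-fold fall (log2 change -3.02 ± 0.11, adjusted p = 2.34e-07) does not rest on dim values, and its second probe set fell too (log2 change -3.84 ± 0.19, adjusted p = 6.43e-07).

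Plxnc1, the receptor of Sema7a, had signals of 346, 423 and 459.7 on SOD1-mutant arrays, 261, 336 and 168 on wild-type motor neuron arrays and 2925, 1577 and 2114 on cord arrays. It fell 8.11-fold (log2 change -3.02 ± 0.32, adjusted p = 5.07e-05). Thus on the brightest probe sets Sema7a was higher and its plexin lower in the captured cells, while the dimmer Sema7a probe set was lower. Plxnb1, the receptor of Sema4d, and Plxnd1, the receptor of Sema3e, fell with log2 changes of -2.65 ± 0.18 and -2.86 ± 0.34, as did their ligands named above. Plxnd1 exceeded background on 1 of 3 wild-type motor neuron arrays.

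The class A plexins, which carry the neuropilin signal into the cell, were near the cord level under the deposited scaling. Plxna1 had signals of 1957, 1909.8 and 2009 in wild-type motor neurons and 2217, 1829.8 and 2071 in cord, and Plxna3 had 1684, 1923 and 1867 and 1917, 1841 and 1776. Both sets overlapped, and neither gene was called (log2 changes -0.05 ± 0.14 and -0.02 ± 0.14). Plxna4 spread widely in wild-type motor neurons, at 902, 2776 and 1732, against 1422, 1245 and 1368 in cord, and was not called (log2 change 0.28 ± 0.35), but it was called higher without the first wild-type motor neuron array (0.70). Plxna2 was lower, at 2673, 2153 and 2553 in wild-type motor neurons and 4136, 3507 and 3904 in cord (log2 change -0.64 ± 0.13, adjusted p = 0.00263). These calls turn with the scaling: Plxna1, Plxna3 and Plxna4 were called higher in motor neurons under quantile normalization and under centring, where Plxna2 was not called. Second probe sets disagreed, that of Plxna3 being lower (-2.54 ± 0.55, adjusted p = 0.0032) and that of Plxna4 higher (1.07 ± 0.28, adjusted p = 0.00804). The dimmer Plxna3 probe set was above background on 2 of 3 wild-type motor neuron arrays and 1 of 3 SOD1-mutant arrays.

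Ephrins of class B, which span the membrane, fell, and those of class A, which are held by a lipid anchor, went both ways. Efnb3 had signals of 4232, 2956 and 3510.4 on SOD1-mutant arrays, 2104, 2911 and 2936 on wild-type motor neuron arrays and 15905, 19103 and 17215 on cord arrays. No captured array came near the cord range, and the fall in wild-type motor neurons was 6.58-fold (log2 change -2.72 ± 0.15, adjusted p = 1.05e-06). Efnb2 fell 4.08-fold (log2 change -2.03 ± 0.35, adjusted p = 0.000889), with signals of 317, 842 and 576 in wild-type motor neurons and 2423, 1687 and 2816 in cord. Efnb1 also fell (log2 change -1.59 ± 0.30), a call lost under both other scalings.

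Efna5, a repellent for axons with EphA receptors, had signals of 4182, 4666 and 2831 on SOD1-mutant arrays, 4219.5, 4592 and 5247 on wild-type motor neuron arrays and 2325, 3002 and 2699 on cord arrays. Wild-type motor neurons lay above cord on all arrays, whereas the third SOD1-mutant array fell inside the cord range. The rise was 1.75-fold (log2 change 0.81 ± 0.14, adjusted p = 0.000954). Efna3 rose on both of its probe sets, with log2 changes of 0.53 ± 0.13 (adjusted p = 0.00529) and 1.19 ± 0.15 (adjusted p = 0.000156). Efna2 fell (log2 change -1.64 ± 0.37, adjusted p = 0.00421) but lost the call under both other scalings, and Efna1 was not called (log2 change -0.54 ± 0.26).

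Among 10 Eph receptors tested, 4 rose and 3 fell, where 31.1% and 36.1% of all genes did. The falls depended on the scaling. Quantile normalization gave 6 higher and 1 lower, where 42.2% and 26.1% of all genes were. Centring gave 7 higher and 0 lower, where 57.8% and 15.3% of all genes were. Ephb3 showed the largest rise of the family. Its signal was 933, 1536 and 1114 on SOD1-mutant arrays, 1498, 2061 and 1607 on wild-type motor neuron arrays and 709, 708 and 802 on cord arrays. All captured arrays were above the cord, and the rise in wild-type motor neurons was 2.27-fold (log2 change 1.19 ± 0.19, adjusted p = 0.000642). Epha5 had signals of 5645, 5092 and 5290.0, 6510.4, 4657 and 4413 and 2694, 2854 and 2441 in the same groups and rose 1.92-fold (log2 change 0.94 ± 0.16, adjusted p = 0.000935). Ephb6, a family member without kinase activity, rose 1.43-fold (log2 change 0.52 ± 0.14, adjusted p = 0.01).

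Epha3 and Epha4 are known for sorting motor axons to muscle targets. Epha3 had signals of 428, 759.8 and 686 on SOD1-mutant arrays, 1101, 874 and 1097 on wild-type motor neuron arrays and 792, 408 and 478 on cord arrays. Wild-type motor neurons were above cord on all arrays (log2 change 0.90 ± 0.29, adjusted p = 0.0218). That call was lost without the third wild-type motor neuron array (adjusted p = 0.0693), without the second cord array (0.0742), without the third cord array (0.0704) and with the mean of its probe sets (0.0613). Its second tested probe set was not called (log2 change 0.49 ± 0.39). Epha4, which binds ephrins of both classes, had signals of 1446, 1833 and 881 on SOD1-mutant arrays, 842, 1329 and 809.8 on wild-type motor neuron arrays and 1943, 1932 and 2028 on cord arrays. Captured arrays were below cord on this probe set (log2 change -1.01 ± 0.21, adjusted p = 0.003), and 2 of its other 3 tested probe sets were also called lower. The Epha4 call was lost under quantile normalization (log2 change -0.23) and under centring (-0.10). Epha6 fell (log2 change -1.31 ± 0.33), also not under those scalings, and Ephb1 fell by 0.47 on the log2 scale but was called higher after centring (0.43). Epha2, Epha7 and Epha10 were not called under the deposited scaling, Epha7 and Epha10 were called higher under quantile normalization (1.15 and 0.42) and after centring (1.22 and 0.74), and 1 of the 4 Epha7 probe sets was called lower (-1.63 ± 0.35).

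The Slits divided. Slit2, a secreted repellent that binds Robo1 and Robo2, had signals of 18841, 16996 and 16278 on SOD1-mutant arrays, 22931, 21205 and 21752 on wild-type motor neuron arrays and 6496, 4039 and 6290.3 on cord arrays. All captured arrays exceeded all cord arrays, and the SOD1-mutant arrays lay below the wild-type ones. The rise in wild-type motor neurons was 3.99-fold (log2 change 2.0 ± 0.17, adjusted p = 1.28e-05). A second probe set rose as much (log2 change 2.35 ± 0.22, adjusted p = 2.44e-05), and the remaining, dimmer one was not called (-0.03 ± 0.27, adjusted p = 0.941). Slit1 had signals of 249.9, 1267 and 617, 368, 585 and 502 and 2176, 1287 and 1386 in the same groups, and fell 3.2-fold in wild-type motor neurons (log2 change -1.68 ± 0.28, adjusted p = 0.000685), while its second probe set was not called (-0.14 ± 0.30). Slit3 was not called under the deposited scaling (log2 change 0.57 ± 0.31) and was called higher under both others, with array weights (0.85) and without the first wild-type motor neuron array (0.82). Robo1, the Slit receptor of axons, had signals of 4017, 3997 and 4270.0 in wild-type motor neurons and 2792, 2782 and 3223 in cord and rose 1.4-fold (log2 change 0.48 ± 0.12, adjusted p = 0.00556), although its second probe set was not called (-0.11 ± 0.21) and the mean of both was not either (0.19). Robo4, known from endothelium, fell (log2 change -1.24 ± 0.33), a call lost under both other scalings.

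Ntn1, the secreted ligand of Dcc, had signals of 446, 279.5 and 381 on SOD1-mutant arrays, 551, 276 and 92.8 on wild-type motor neuron arrays and 2615, 2272 and 1816 on cord arrays. All captured arrays were below the cord, and the third wild-type motor neuron array was below background. The fall was 8.34-fold (log2 change -3.06 ± 0.52, adjusted p = 0.000796), with a log2 change of -2.44 without that array. Ntn4, a netrin of basement membranes, went the other way, at 1732, 2482 and 2173 on SOD1-mutant, 2277, 2226 and 2333 on wild-type motor neuron and 1215, 1123 and 1239.8 on cord arrays, a rise of 1.9-fold (log2 change 0.92 ± 0.14, adjusted p = 0.000439). Both netrin calls held in all 3 scalings on the brightest probe sets. A dimmer second Ntn4 probe set, under the filter and not tested, did not share the rise. It read 34.2, 44.0 and 39.4 on SOD1-mutant, 46.3, 183.8 and 56.7 on wild-type motor neuron and 227.8, 213.0 and 178.6 on cord arrays.

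The receptor Dcc was not called on its brightest probe set, with signals of 2234, 2394 and 2566 in wild-type motor neurons and 2258, 2302 and 2084 in cord (log2 change 0.11 ± 0.13). Its other 2 tested probe sets were lower, with log2 changes of -1.04 ± 0.20 and -1.38 ± 0.46. The dimmer of these was above background on 2 of 3 wild-type motor neuron arrays and 1 of 3 SOD1-mutant arrays. The brightest Dcc probe set was called higher under quantile normalization (0.66), after centring (1.02) and with array weights (0.23). No single direction can thus be given for Dcc. Unc5c, a repulsive netrin receptor, rose on its brightest probe set, at 4684, 3484 and 4193 in wild-type motor neurons and 2139, 3063 and 2305 in cord (log2 change 0.72 ± 0.17, adjusted p = 0.00562). Its second probe set fell more steeply, at 172, 269 and 333 in wild-type motor neurons and 1218, 1322 and 1159.9 in cord (log2 change -2.21 ± 0.29, adjusted p = 0.000184). Unc5b fell (log2 change -1.38 ± 0.19, adjusted p = 0.000244), except after centring, and Unc5a and Unc5d were not called under the deposited scaling. Both were called higher under quantile normalization (0.59 and 0.88) and after centring (0.74 and 1.10). In each of these scalings 4 of the 5 genes of Unc5 with Dcc were higher, where 42.2% and 57.8% of all genes were.

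**Figure D3:**
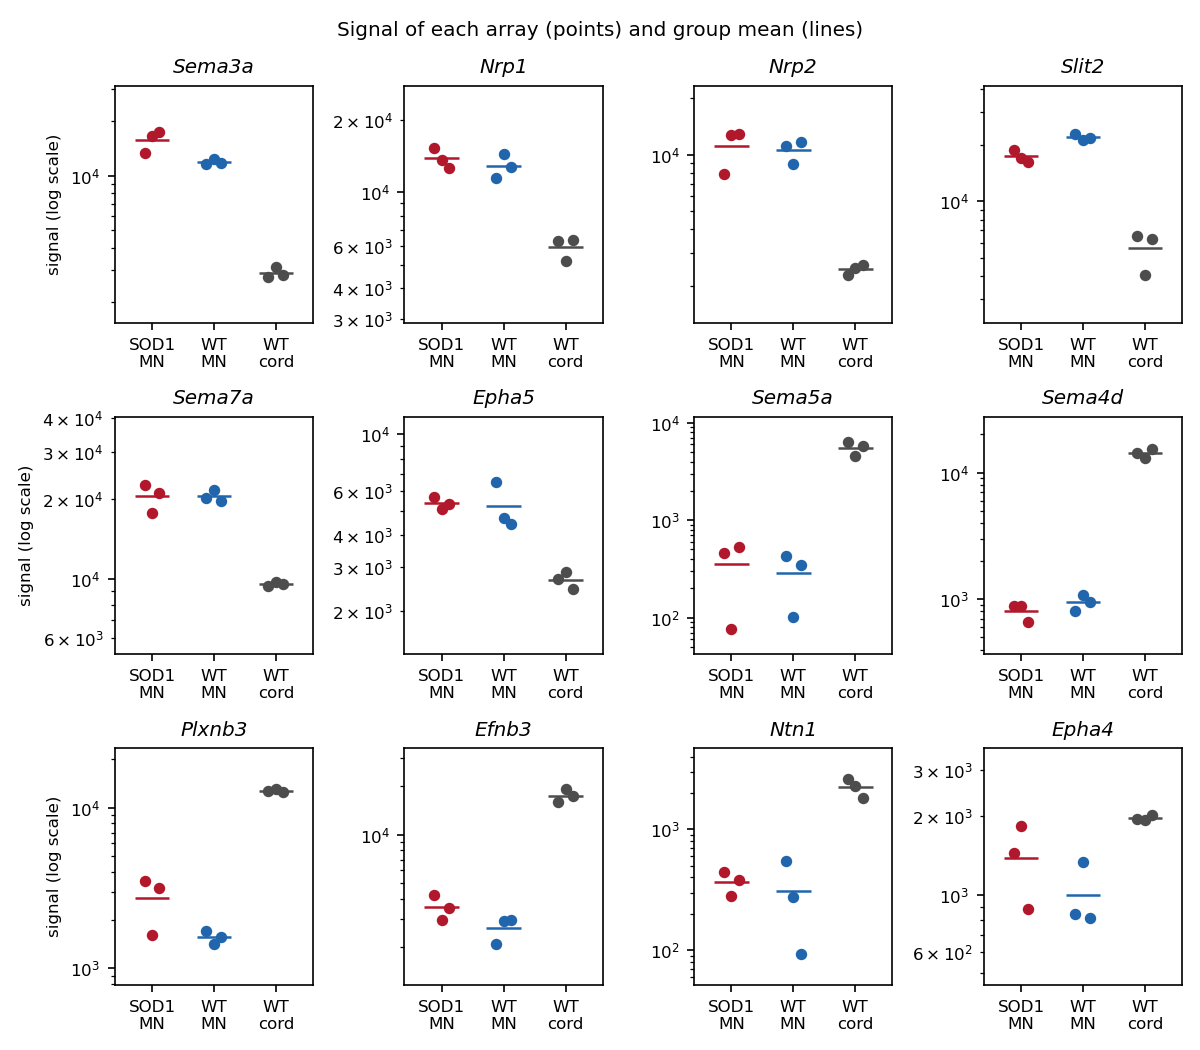
Points show the signal of each array on a log axis for 12 guidance genes, with lines at the group means, for SOD1-mutant motor neurons, wild-type motor neurons (MN) and wild-type whole cord. Sema3a, Nrp1, Nrp2, Slit2, Sema7a and Epha5 lie above the cord on all captured arrays, and Sema5a, Sema4d, Plxnb3, Efnb3, Ntn1 and Epha4 lie below it.

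Since captured arrays carried little 5′ signal, the probe sets of a gene were compared. Of the 105 guidance probe sets tested, 75 were called (71.4%), 23 higher and 52 lower in wild-type motor neurons, against 65.5% of all probe sets tested. The split by direction was not compared with that of other probe sets. Under the deposited scaling the whole array also leaned towards falls, its probe sets having a median of -0.35 on the log2 scale. The 52 include the brightest probe sets of Sema3b, Sema3f, Sema3g, Sema6b and Plxnd1, which passed the filter only through the cord. Among 29 genes with more than 1 tested probe set, 21 had at least 2 called. In 5 of these all calls were higher, namely Efna3, Nrp1, Nrp2, Sema4f and Slit2, and in 14 all were lower. Epha5 and Unc5c were called in both directions. Epha5 rose on 2 probe sets (log2 changes 0.94 ± 0.16 and 1.08 ± 0.26) and fell on another, at 1775, 1475 and 1816 in wild-type motor neurons and 3012, 2658 and 2825 in cord (-0.74 ± 0.14, adjusted p = 0.00168). The position of each probe set along its transcript was not used here, so its part in these differences was not tested.

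**Figure D4:**
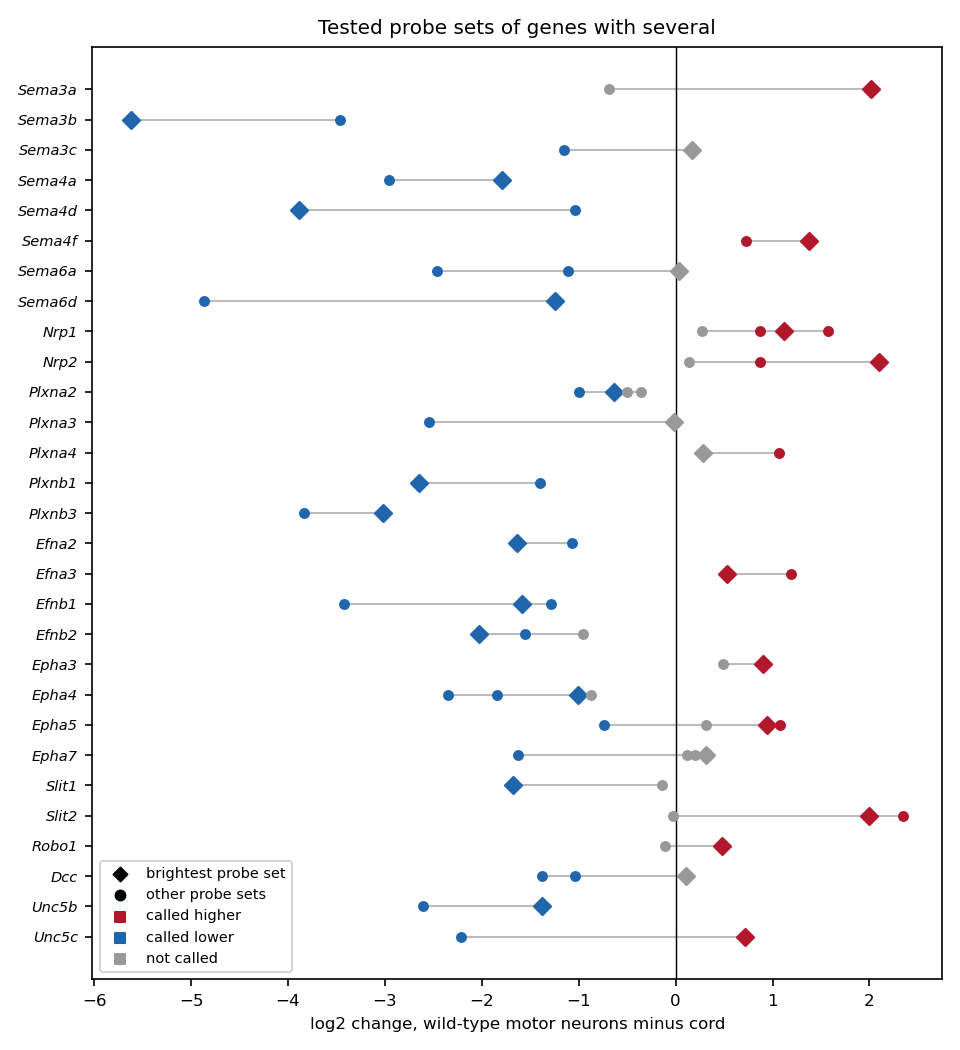
Each row is 1 of 29 guidance genes with several tested probe sets, and points show the log2 change of each probe set, wild-type motor neurons minus wild-type cord, with diamonds for the brightest. Most rows keep to 1 side of 0, while Epha5 and Unc5c have called points on both sides. Many rows hold both called and uncalled points, among them Sema3a, Sema6a, Dcc, Slit2, Nrp1, Nrp2, Epha3, Epha4 and Robo1.

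The 8 genes under the filter were Efna4, Epha1, Epha8, Ephb4, Ntn3, Ntn5, Robo2 and Robo3. Ephb4, an Eph receptor known from veins, had signals of 16.7, 62.3 and 14.4 on SOD1-mutant arrays and 25.2, 20.7 and 37.1 on wild-type motor neuron arrays, all below background, against 434, 283 and 389 on cord arrays, all above it. This is at least 2.41-fold lower in wild-type motor neurons, without a test. Epha8 gave the same picture, at least 2.19-fold lower, with 13.2, 38.7 and 69.1 in wild-type motor neurons and 419.6, 414 and 201 in cord. Robo2, a Slit receptor, was above background on 1 SOD1-mutant array, 2 wild-type motor neuron arrays and 3 cord arrays. Of the others, 5 were above background on some arrays of at least 1 group, and none of these on all arrays of a group. Ephb2 was not analysed here.

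SOD1-mutant motor neurons were set against the same cord arrays without a test, since the comparison shares them with the one above. In 12 of 60 genes all SOD1-mutant arrays lay above all cord arrays (20%, against 31.8% of all genes tested), and in 31 all lay below (51.7%, against 39.4%). Those above were Efna3, Epha5, Ephb3, Nrp1, Nrp2, Ntn4, Robo1, Sema3a, Sema3c, Sema4f, Sema7a and Slit2. Among the genes called higher in wild-type motor neurons, Efna5, Epha3 and Unc5c had SOD1-mutant arrays inside the cord range. Ephb6 was the exception that changed side: its SOD1-mutant signals of 1007, 1454 and 1147 all lay below the cord signals of 1813, 1953 and 1842.

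The second comparison asked whether the mutation changed guidance genes in motor neurons. With limma, 0 of 60 genes passed an adjusted p of 0.05, and over all genes 0.169% were higher and 0.0847% lower in SOD1-mutant motor neurons. At an unadjusted p under 0.05 there were 9 guidance genes (15%), against 16.8% of all genes, a share near the background. The median log2 change was 0.07 for guidance genes and -0.01 for all genes. All SOD1-mutant arrays lay above all wild-type arrays in 6 genes (10%, against 11.6% of all genes) and below in 5 (8.33%, against 12.8%). These shares were also near or under the background. In simulated arrays, with changes put on probe sets drawn from all those tested, 10% of log2 changes of 1 and 56% of log2 changes of 2 were recovered. They were not computed for the guidance genes.

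The change closest to the threshold was that of Ephb6. Its signal was 1007, 1454 and 1147 on SOD1-mutant arrays and 2544, 2479 and 3073 on wild-type motor neuron arrays, with no overlap. It was 2.24-fold lower in SOD1-mutant motor neurons (log2 change -1.16 ± 0.22, adjusted p = 0.0785) and did not pass. It passed in the fit of all 9 arrays together, as did Sema3e. Sema6c, a transmembrane semaphorin, had signals of 159, 167 and 157 on SOD1-mutant arrays and 548, 639 and 507 on wild-type motor neuron arrays. The groups did not overlap and the spread within each was narrow, but 2 of the 3 SOD1-mutant values were below background (log2 change -1.69 ± 0.39, adjusted p = 0.115). Slit3 had 333, 26.2 and 506 on SOD1-mutant arrays and 682, 1106 and 1196 on wild-type motor neuron arrays. Its groups did not overlap either (log2 change -2.27 ± 0.76, adjusted p = 0.204), and without the second SOD1-mutant array, which was below background, the log2 change was -1.20.

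Epha3 had a lower signal in the mutant by 0.73 on the log2 scale without passing (log2 change -0.73 ± 0.30, adjusted p = 0.296), with no overlap between 428, 759.8 and 686 on SOD1-mutant arrays and 1101, 874 and 1097 on wild-type motor neuron arrays. Ephb3 had a log2 change of -0.54 ± 0.26 (adjusted p = 0.357) with overlapping groups. Slit2 had the log2 change -0.34 ± 0.13 (adjusted p = 0.249), and all SOD1-mutant arrays were below all wild-type ones in the values given above.

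In the other direction, Sema3e had signals of 459, 556 and 406 on SOD1-mutant arrays and 219, 215 and 170.1 on wild-type motor neuron arrays. All mutant arrays were above the wild-type ones, at a 2.22-fold difference that did not pass (log2 change 1.15 ± 0.40, adjusted p = 0.218). Epha6 had 459.6, 368 and 376 in SOD1-mutant and 212, 227 and 158 in wild-type motor neurons, also without overlap (log2 change 0.95 ± 0.42, adjusted p = 0.319). Sema3a was higher on all SOD1-mutant arrays than on all wild-type motor neuron arrays, by a small margin (log2 change 0.40 ± 0.15, adjusted p = 0.234). Epha2, Sema3b and Plxnb3 had log2 changes of 1.26 ± 0.69, 0.70 ± 1.12 and 0.74 ± 0.29, with overlapping groups and adjusted p-values of 0.41, 0.802 and 0.262. Astrocyte markers summed to 108855 to 123700 on SOD1-mutant arrays and 83423 to 88982 on wild-type motor neuron arrays, and 1 of 6 was called higher. Their part in these differences was not tested.

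**Figure D5:**
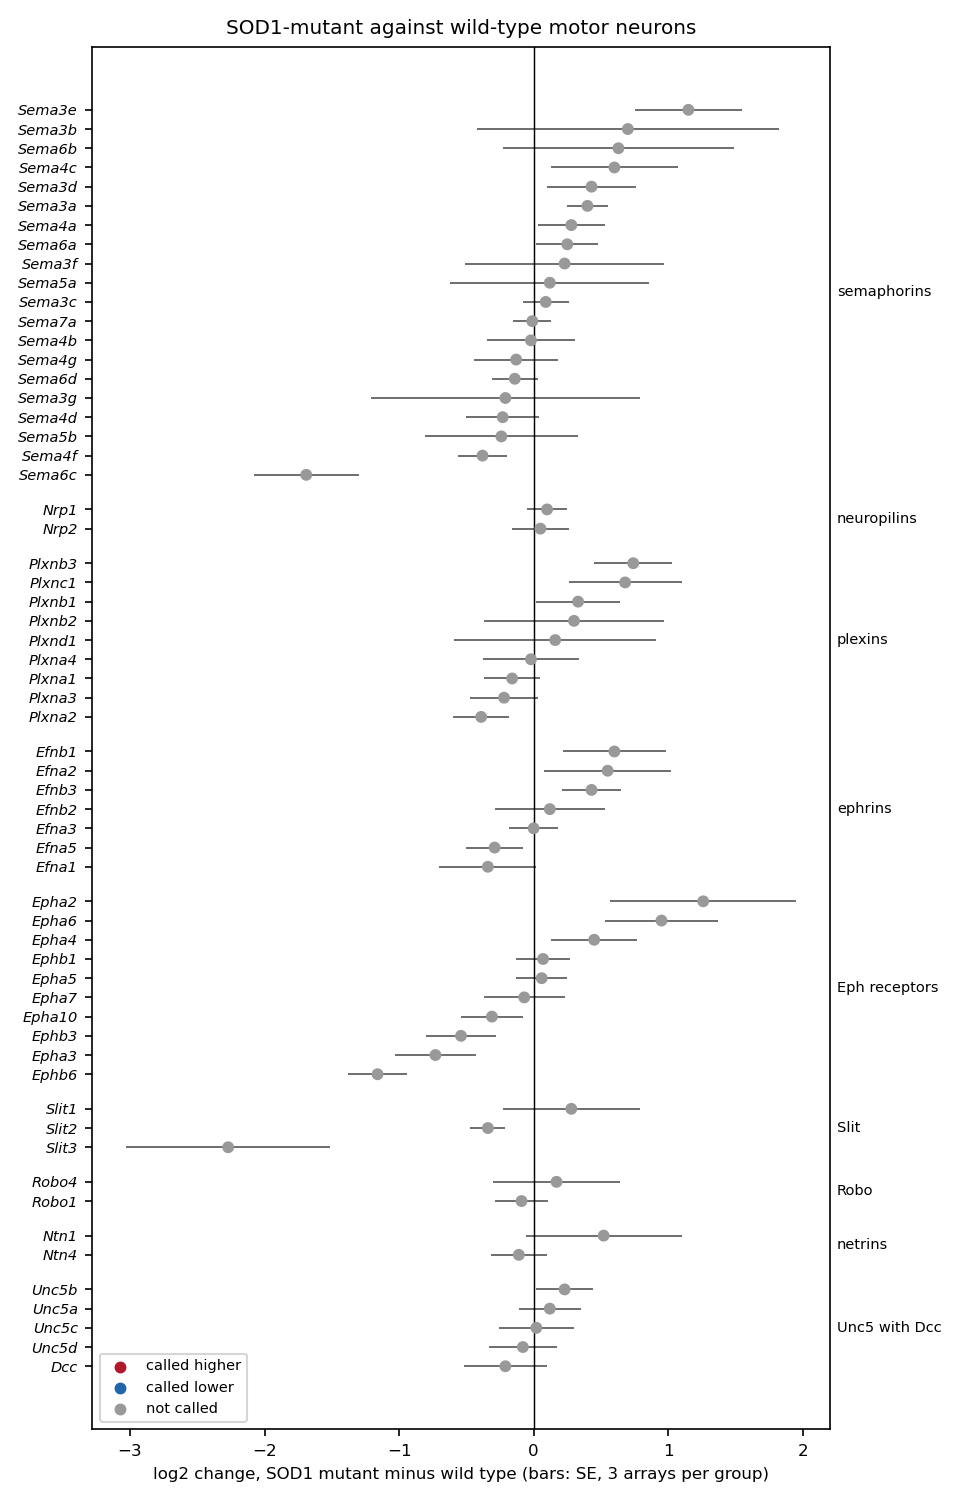
Points show the log2 change of each tested guidance gene, SOD1-mutant minus wild-type motor neurons, with bars for the SE over 3 arrays a group, in rows by family. No gene was called, and Slit3, Sema6c and Ephb6 lie farthest below 0 while Epha2 and Sema3e lie farthest above.

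The genes that act with or behind these receptors were read from a list of 73 effectors and co-receptors, of which 69 were matched on the array and 66 tested. In wild-type motor neurons against cord, 25 rose (37.9%, against 31.1% of all genes) and 28 fell (42.4%, against 36.1%), with a median log2 change of -0.08. Quantile normalization gave 28 higher and 27 lower (42.4% and 40.9%, against 42.2% and 26.1% of all genes). After centring 41 were higher and 13 lower (62.1% and 19.7%, against 57.8% and 15.3% of all genes). Gfra1 and Ret encode the co-receptor and the receptor tyrosine kinase for the neurotrophic factor GDNF. Ret had signals of 32710.4, 43635 and 34872 on SOD1-mutant arrays, 24593, 29244 and 22213 on wild-type motor neuron arrays and 8023, 6179 and 7459.9 on cord arrays, with all captured arrays above the cord. It rose in wild-type motor neurons (log2 change 1.81 ± 0.13, adjusted p = 5.28e-06). Gfra1 had 15882, 20505 and 19773, 21768, 16844 and 20812 and 3871, 3298 and 4019.9 in the same groups and rose on its brightest probe set (log2 change 2.40 ± 0.13, adjusted p = 9.31e-07). The mean over all its tested probe sets was called lower (log2 change -1.21, adjusted p = 0.00348), so no single direction can be given for Gfra1.

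Mical1, an actin-oxidising enzyme behind plexins, rose with a log2 change of 2.34 ± 0.26 (adjusted p = 6.59e-05), and its relative Mical3 fell with -3.20 ± 0.52 (adjusted p = 0.0006). The first wild-type motor neuron array was below background for Mical3, and without it the log2 change was -2.50. Mical1 signals were 2332, 3148 and 2562 on SOD1-mutant arrays and 4118, 4569 and 4175 on wild-type motor neuron arrays, against 1276, 574 and 784 on cord arrays. All captured arrays were above the cord, and all SOD1-mutant arrays were below the wild-type ones, a difference that did not pass (log2 change -0.68 ± 0.18, adjusted p = 0.141). Vav3, a signalling protein behind Eph receptors, rose on its brightest probe set (log2 change 2.33 ± 0.18, adjusted p = 6.27e-06), but the mean over its tested probe sets was not called (0.49, adjusted p = 0.0721). Chn2, a GTPase-activating protein for Rac, and Dock1, an exchange factor for Rac, fell with log2 changes of -2.84 ± 0.13 and -2.74 ± 0.20. Met, the receptor of hepatocyte growth factor, fell too (log2 change -2.72 ± 0.53, adjusted p = 0.00176), with 1 of 3 wild-type motor neuron arrays above background and a log2 change of -1.95 with values raised to background. Between SOD1-mutant and wild-type motor neurons, 0 of these 66 genes passed with limma, and 16 had an unadjusted p under 0.05 (24.2%, against 16.8% of all genes).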

How the data were processed

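For each of 9 arrays the authors deposited 1 linear intensity per probe set. How these intensity values were made, and any details of laser capture or RNA amplification, are not given in the labels or files. Leaving 2% of values off each end, all arrays averaged 2500, a common scaling made before deposit. Groups were taken from the sample descriptions and replicate numbers from the titles.

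The 64 control probe sets among 45101 were dropped. Before log2, 20.3 (the 10th percentile over the arrays) was added, which understates changes of dim genes. The filter averaged the 3 group means of a probe set and kept those above its 40th percentile, 27022 probe sets. It did not use the annotation, so probe sets with no gene or several genes (9160 and 932 on the array) could pass. The brightest probe set of a single gene stood for that gene, and 12983 genes were tested. Each comparison was fitted on its 6 arrays with limma 3.58.1 in R 4.3.3 (lmFit, then eBayes with trend), two-sided, adjusted by Benjamini-Hochberg over all tested probe sets, at a threshold of 0.05. Background was, per array, the 95th percentile of 27 Bacillus subtilis control probe sets. Where a group lay below it on all arrays, the text says at least N-fold: the bright group's mean log2 value was set against a dim mean in which each array took its background or its measured value, whichever was higher. Gene names came from the platform annotation and promoters from RefSeq. Figures used matplotlib 3.10.9.

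The members and lists were chosen with earlier results of these data known. Genes described with values were up to 3 called rises and 3 called falls per family, 17 much-studied members, the 5 largest changes each way between genotypes, and up to 4 effectors each way. Other members are named to account for all of them, and those given values outside this rule were chosen after their values were seen.

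On simulated arrays with 200 changed probe sets of 27022, the fit of motor neurons against cord recovered 37% of log2 changes of 1 and 75% of log2 changes of 2, with 3 false calls. In the data 65.5% of probe sets were called in that comparison, so these rates do not give the recovery there. Same-numbered arrays were checked for shared deviations: the correlation was 0.0314, 0.00528 and -0.00347 between motor neurons and cord and 0.145, 0.171 and 0.00228 between genotypes. The highest correlation with another number was -0.0164, 0.0193 and 0.0152 against cord and -0.0271, 0.0234 and 0.0635 between genotypes. Between genotypes the first and second arrays thus shared more with their own number, and the third did not. The labels state no pairing, and the main fit left the numbers out. Alternatives were quantile normalization, centring on the array median, a filter omitted or raised to the 60th percentile, 4 times more or less pseudocount, a joint fit of all 9 arrays, eBayes without trend, array weights, a block for replicate number, values raised to background, probe sets averaged per gene, and leaving out each array in turn.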

Additional observations from a re-analysis of the deposited data

How the results depend on the processing

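For wild-type motor neurons against cord, the counts of 15 higher and 29 lower guidance genes moved with the scaling, to 29 and 19 after centring and to 26 higher under quantile normalization. A filter at the 60th percentile, which tests fewer genes, left 15 higher and 17 lower. Leaving out 1 array at a time gave 14 to 18 higher and 29 to 30 lower. The median log2 change of -0.51 became 0.40 after centring, 0.01 under quantile normalization, -0.04 with the stricter filter, -0.48 with the larger pseudocount, -0.84 with probe sets averaged per gene, -0.54 with array weights, and -0.63 to -0.46 without single arrays. The direction of some genes turned, namely Ephb1 (0.43), Plxna1 (0.85), Plxna2 (0.26) and Plxna3 (0.89) after centring, Plxna1 (0.56) and Plxna3 (0.63) under quantile normalization, Plxna3 (0.03) with array weights, and Dcc (-0.77), Unc5c (-0.75) and Gfra1 (-1.21) with the mean of the probe sets. Without single arrays, Plxna1 ranged from -0.13 to 0.01, Plxna3 from -0.06 to 0.04 and Plxna4 from -0.10 to 0.70. The cause of these moves was not tested.

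Between SOD1-mutant and wild-type motor neurons, the count of 0 guidance genes became 2 with all 9 arrays in 1 fit (Ephb6 and Sema3e, with 5.09% of all genes called) and stayed 0 without each array in turn. Array weights gave 31, with 52.1% of all genes called. That estimate stopped before it converged and put a weight of 10.8 on the third wild-type motor neuron array and 5.47 on the third SOD1-mutant array, against 0.281 to 0.429 on the others. For effectors the count of 0 became 3 and 39 in these 2 fits. With the replicate number as a block, 1 guidance gene (Ephb6, adjusted p = 0.0394) and 2 effectors were called, with 2.02% of all genes. In neither comparison did every array correlate best with its own number. Against cord, 31 of the 44 called guidance genes and 6 of the 8 named effectors kept their call in all settings that gave a value. With 3 arrays a group, low signal limits Sema3b, Sema3f, Sema3g, Sema6b and Plxnd1, which were above background on at most 1 wild-type motor neuron array.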
